A study of Mus musculus with 17 samples.

Results

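The 37 genes described here carry fatty acids into the heart muscle cell, store them, bring them into mitochondria and oxidise them. They were taken by gene name from a table of read counts for 56748 genes, and they were ordered into 10 steps from uptake to uncoupling. All 37 were found and all 37 passed the filter on low counts, among 16195 genes tested; the lowest count of any of them in any library was 104. RNA was sequenced from whole hearts of 17 mice aged 12 to 16 months, 8 labelled Ctrl and 9 labelled hMut, with no treatment in either group. The hMut mice were Polg iMut/iMut; +/Ckmm-cre on a C57BL/6N background. In them, Cre made from the muscle creatine kinase (Ckmm) transgene removes a wild-type Polg cassette, so that the mitochondrial DNA polymerase encoded by the remaining allele lacks proofreading. The Ctrl label gives no genotype, so whether the controls carried the iMut alleles or Ckmm-cre is not stated here. Ckmm-cre acts in striated muscle, and the other cells of the heart, which also contributed RNA, are not its target.

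The adult heart draws most of its energy from long-chain fatty acids. They are released from circulating triglyceride at the vessel wall, taken up, bound and activated to acyl-CoA, and then either stored in lipid droplets or passed to carnitine for entry into mitochondria. In the matrix, each round of beta-oxidation (dehydrogenation, hydration, a second oxidation and thiolysis) shortens the chain, and the electrons reach the respiratory chain, whose subunits are partly encoded by mitochondrial DNA, through electron transfer flavoprotein and the NADH pool.

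Library totals ranged from 34425783 to 46486964 counts in Ctrl and from 32915159 to 40175122 in hMut. Transcripts of mitochondrial DNA made up 23.5% to 30.9% of the counts in Ctrl and 15.9% to 23.0% in hMut, so the 2 groups did not overlap in that share. By Xist against Y-linked transcripts, 3 of 8 Ctrl hearts (5, 6 and 7) and 2 of 9 hMut hearts (1 and 4) were read as female. Levels are given as CPM, the count of a gene divided by the size of its library after TMM scaling, which sets the bulk of genes equal between libraries. Fold changes are on the log2 scale as hMut minus Ctrl, from edgeR's quasi-likelihood test, and adjusted p-values are Benjamini-Hochberg values over all 16195 genes. Tissue markers were those of heart muscle: the 14 cardiomyocyte markers summed to between 58632 and 70018 CPM in Ctrl. In hMut the sum ran from 45997 to 68626 CPM, with 49984 in heart 6 and 45997 in heart 9. Among the hMut hearts, libraries 6 and 9 stood apart from the other 7, and values with and without them are given below.

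None of the 37 genes passed an adjusted p of 0.05 in either direction, whereas 3.48% of all genes tested were called higher in hMut and 1.14% lower. At an unadjusted p under 0.05, 13 of the 37 were lower in hMut, beside 1831 (11.3%) of all genes tested, and none was higher. With DESeq2, 1 of the 37 (Lpl) was called lower, as were 3.12% of all genes it tested. With limma-voom and sample quality weights, 7 were called lower (Lpl, Slc27a1, Cpt1b, Crat, Dgat2, Hadha and Hadhb), as were 5.59% of all genes. The log2 fold change was below 0 for 34 of the 37 (91.9%) and for 49.5% of all genes tested, but for 20 of the 37 when libraries were scaled on cardiomyocyte markers. The median of the 37 was -0.22, while the median of all genes was 0.00. For no member did the 9 hMut hearts all lie outside the Ctrl range on one side, a pattern that 0.543% of all genes showed above and 0.0617% below. In whole heart tissue, fewer cells of a type and less of an RNA per cell cannot be told apart. The median over the 14 cardiomyocyte markers was also -0.22, with 0 of 14 called by edgeR's test.

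**Figure D1:**
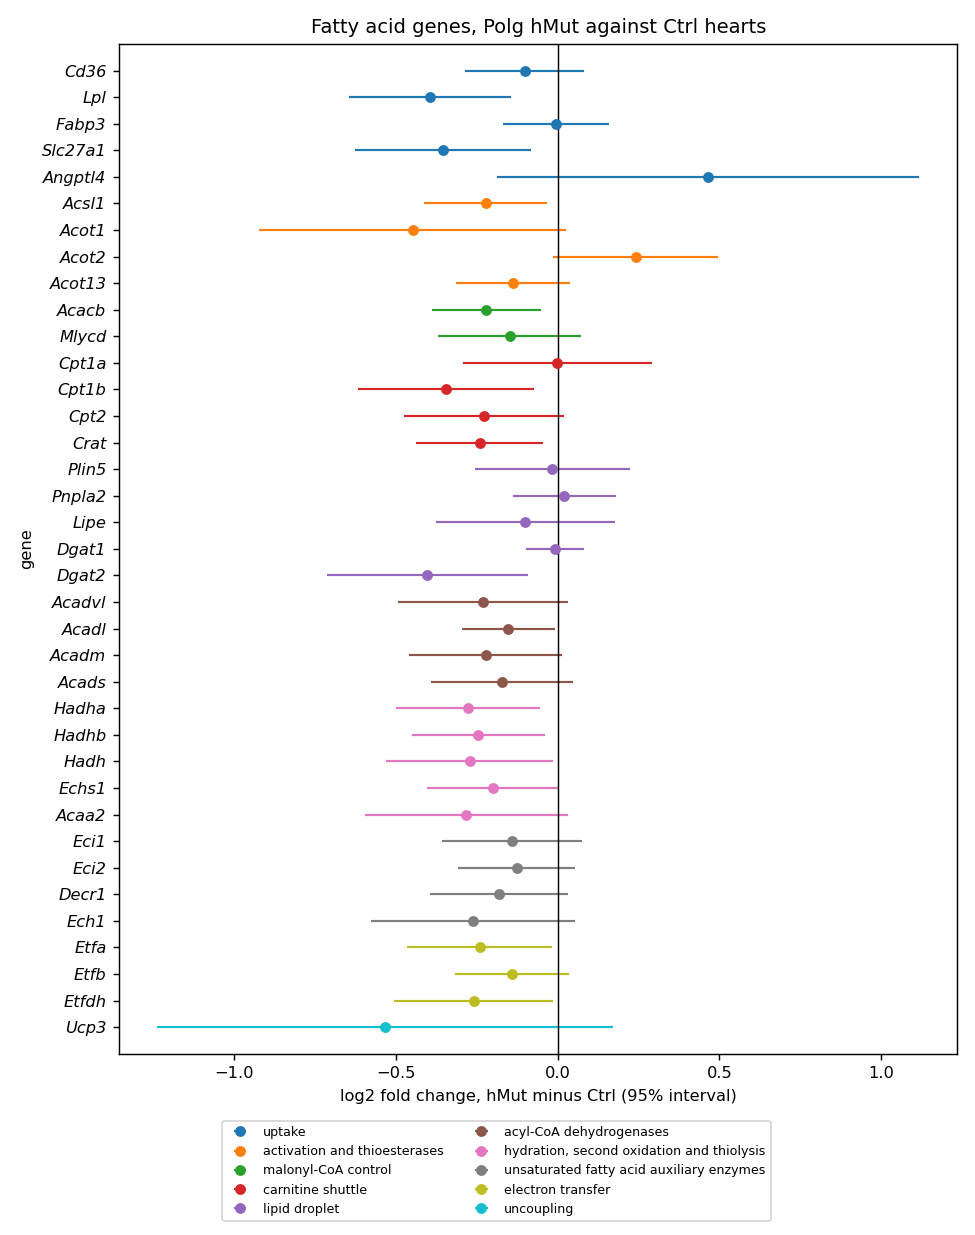
Log2 fold change (hMut minus Ctrl, horizontal axis) of the 37 genes, in order of step, with 95% intervals from edgeR (8 Ctrl and 9 hMut hearts). Colours mark the 10 steps. Most points lie between -0.4 and 0, and the widest intervals belong to Ucp3, Angptl4 and Acot1.

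The most negative values were in 2 hearts. Taken as the median over the 37 genes, log2 CPM minus the Ctrl mean was -0.66 in hMut heart 6 and -0.63 in hMut heart 9. In the other 7 hMut hearts that median lay between -0.16 (heart 5) and 0.08 (heart 2), and in the Ctrl hearts between -0.16 and 0.18. In heart 6, 29 of the 37 genes were below every Ctrl heart, and 28.8% of all genes tested were. In heart 9 the count was 30 of 37, beside 26.6% of all genes. Heart 2 had 0 of 37 below every Ctrl heart and 5 above. The cardiomyocyte markers had medians of -0.55 in heart 6 and -0.47 in heart 9, and the summed CPM of 10 macrophage markers was 1386 in heart 6 and 722 in heart 9, against 273 to 406 in Ctrl. The part of cell composition in the members' values was not tested. Without hearts 6 and 9 the median of the 37 was -0.09, 32 of 37 were below 0, and 1 (Lpl) was called lower, as were 0.712% of all genes; leaving these 2 out was chosen with their values known.

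**Figure D2:**
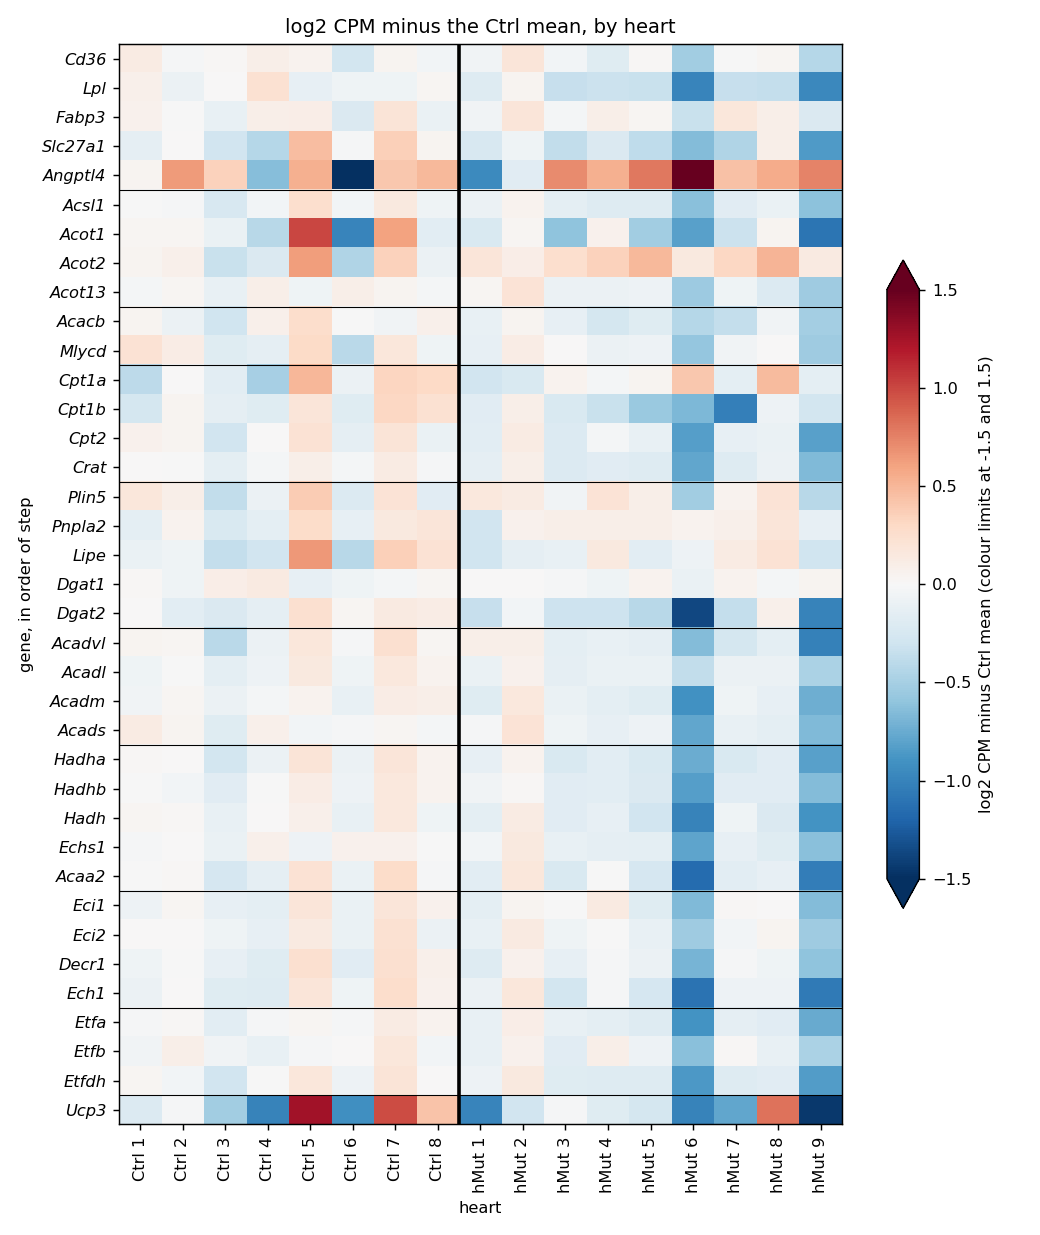
Log2 CPM minus the Ctrl mean for each of the 37 genes (rows, with lines between steps) in each of the 17 hearts (columns, Ctrl left of the thick line). Blue is below and red above the Ctrl mean. The blue columns of hMut hearts 6 and 9 span most rows, while Dgat1 and Pnpla2 stay pale in them and Angptl4 is red.

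At the uptake step, Lpl had the smallest adjusted p of all 37 genes. Lipoprotein lipase, its product, frees fatty acids from circulating triglyceride. Lpl (chr8:69333143-69360100, plus strand, GRCm39) was measured at 6314, 6721 and 8038 CPM (lowest, median and highest) in the 8 Ctrl hearts and at 3464, 5411 and 7042 CPM in the 9 hMut hearts. Of the hMut hearts, 8 of 9 were below every Ctrl heart, and heart 2 was the exception. The log2 fold change was -0.39 ± 0.12 (SE; 95% interval -0.64 to -0.14), with an adjusted p of 0.0624 in edgeR's test. Without hearts 6 and 9 it was -0.26 with an adjusted p of 0.0468. DESeq2 gave an adjusted p of 0.0176, limma-voom 0.0077, edgeR without hMut heart 1 0.0477 and edgeR without hMut heart 2 0.0168. Lpl was thus at the threshold, and the call turned on the method and the hearts included.

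Of the transporters and binding proteins, Slc27a1 (FATP1, which couples uptake to activation) had a log2 fold change of -0.35 ± 0.13 (adjusted p = 0.110), with 3 of 9 hMut hearts below the Ctrl range. Its Ctrl hearts spread from 109 to 202 CPM, a 1.86-fold range. Cd36, the fatty acid translocase, was at 2026 ± 163 CPM in Ctrl (SD, n = 8) and 1888 ± 282 in hMut (SD, n = 9), a log2 fold change of -0.10 with an interval of -0.28 to 0.08. Fabp3, the cytosolic fatty acid binding protein of heart, was at 2891 ± 271 and 2882 ± 328 CPM, and its 95% interval under TMM scaling was -0.17 to 0.16. Per kilobase of gene length, Fabp3 was the most abundant uptake gene in Ctrl at 3513 CPM per kb, followed by Lpl at 656, Cd36 at 564, Slc27a1 at 25.6 and Angptl4 at 3.28. Against the Ctrl mean on the log2 scale, Fabp3 stood at -0.33 in heart 6 and -0.21 in heart 9, where Lpl stood at -0.99 and -0.96.

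Angptl4 encodes a secreted inhibitor of lipoprotein lipase. It was measured at 2.95, 13.5 and 16.2 CPM (lowest, median, highest) in Ctrl and at 5.36, 15.3 and 33.2 CPM in hMut. Heart 6 had the highest value, and 4 of 9 hMut hearts exceeded the Ctrl range. Its log2 fold change was 0.47 ± 0.31, and the adjusted p was 0.341. Without hearts 6 and 9 it was 0.20. The Ctrl hearts alone differed 5.49-fold.

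Acsl1 and 3 thioesterases form the activation step. Acsl1, the main long-chain acyl-CoA synthetase of heart, was at 1032 ± 107 CPM in Ctrl and 885 ± 134 in hMut, with a log2 fold change of -0.22 (95% interval -0.41 to -0.03, adjusted p = 0.140). Acot13, a thioesterase that hydrolyses acyl-CoA, had -0.14 with an adjusted p of 0.301. Acot13 shares 916 of its 1684 exonic bases with BC005537 on the opposite strand, and whether counting used strand is not given in the sources used here.

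Acot1 and Acot2 are neighbouring paralogs that release free fatty acid from acyl-CoA, Acot1 in the cytosol and Acot2 in the mitochondrial matrix. Their coding sequences are 95.6% identical over 1236 aligned bases, so reads can be shared between them. Of the 100-base words in the reference transcript, 21.8% for Acot1 and 15.6% for Acot2 occur in another gene. The stretch of 60 coding bases in which they differ most, in the third coding exon of each, shows how reads can be told apart there. The 13 capitals mark the bases that differ, and both run 5′ to 3′ on the plus strand of GRCm39, from chr12:84063716-84063775 for Acot1 and chr12:84039438-84039497 for Acot2.
Acot1: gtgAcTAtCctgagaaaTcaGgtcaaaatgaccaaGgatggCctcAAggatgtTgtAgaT
Acot2: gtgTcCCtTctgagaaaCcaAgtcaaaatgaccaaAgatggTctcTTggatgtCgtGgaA

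Acot1 was measured at 3.07, 5.93 and 12.2 CPM (lowest, median, highest) in Ctrl and at 2.84, 4.87 and 6.35 CPM in hMut. This gave a log2 fold change of -0.45 ± 0.23 (adjusted p = 0.216), and 8 of 9 hMut hearts lay within the Ctrl range. Without Ctrl heart 5 the value was -0.26. Acot2 was at 62.8 ± 16.4 CPM in Ctrl and 74.3 ± 7.88 CPM in hMut, with a log2 fold change of 0.24 ± 0.12 (adjusted p = 0.213). It was 1 of 3 members with a value above 0, beside Angptl4 and Pnpla2. Among controls, both genes were highest in heart 5 and lowest in heart 6.

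Because the members of a pair share each heart's depth and scaling, the ratio of 2 genes within a heart does not depend on the scaling of libraries. A set of 4 such ratios were compared by a 2-sided exact permutation test over the 24310 arrangements of the hearts, with Benjamini-Hochberg adjustment over the 4. The Acot1 to Acot2 log2 ratio was -3.33 ± 0.29 (SD, n = 8) in Ctrl and -3.98 ± 0.38 (SD, n = 9) in hMut. The ratio was lower in hMut by 0.66 (exact permutation p = 0.0019, adjusted p = 0.0077), with 5 of 9 hMut hearts below every Ctrl heart. Without hearts 6 and 9 the difference was -0.53 (exact permutation, adjusted p = 0.0261). The paralog reads noted above enter both terms of the ratio.

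Malonyl-CoA, the inhibitor of carnitine entry, is made at the mitochondrial surface by the product of Acacb and removed by that of Mlycd. Acacb was at 322 ± 35.3 CPM in Ctrl and 277 ± 34.8 CPM in hMut, a log2 fold change of -0.22 ± 0.08 (adjusted p = 0.108). Mlycd was at 116 ± 18.3 and 104 ± 16.1 CPM, a log2 fold change of -0.15 ± 0.11 (adjusted p = 0.369). The Mlycd to Acacb log2 ratio was -1.49 ± 0.22 (SD, n = 8) in Ctrl and -1.41 ± 0.13 (SD, n = 9) in hMut, and the difference of 0.07 gave p = 0.421 in the exact permutation test.

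In the carnitine shuttle, Cpt1a and Cpt1b encode the liver-type and muscle-type outer membrane acyltransferases, Cpt2 the inner one and Crat carnitine acetyltransferase. Cpt1b was measured at 7.52, 8.75 and 11.2 CPM (lowest, median, highest) in Ctrl and at 4.46, 7.48 and 9.63 CPM in hMut, with 5 of 9 hMut hearts below every Ctrl heart. The lowest was heart 7, not 6 or 9. The log2 fold change was -0.34 ± 0.13 (adjusted p = 0.117), and without hearts 6 and 9 it was -0.31 (adjusted p = 0.223). Its level is uncertain: 2744 of its 4008 exonic bases lie also in the same-strand gene Gm44502, which had a mean of 0.118 counts, and 86.2% of the 100-base words of its transcript are shared with that gene. A read that falls on 2 genes may be dropped in counting, so a Cpt1b level below that of Cpt1a cannot be read from these counts.

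Cpt1a was at 60.3 ± 14.8 CPM in Ctrl and 60.3 ± 11.9 CPM in hMut, a log2 fold change of 0.00 with a 95% interval of -0.29 to 0.29. In heart 6, where most members were far below the Ctrl mean, Cpt1a stood 0.41 above it on the log2 scale, and in heart 9 its value was -0.14. The Cpt1a to Cpt1b log2 ratio was 2.70 ± 0.18 (SD, n = 8) in Ctrl and 3.07 ± 0.45 (SD, n = 9) in hMut. The difference of 0.38 did not pass after adjustment (exact permutation p = 0.0431, adjusted p = 0.0574), although 4 of 9 hMut hearts exceeded the Ctrl range. Cpt2 had a log2 fold change of -0.23 (adjusted p = 0.227). Crat had -0.24 ± 0.09 (adjusted p = 0.126), and 6 of its 9 hMut hearts were below every Ctrl heart.

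The promoters of the 37 genes, 250 bases before to 50 after the reference start site in GRCm39, were searched on both strands for 3 short motifs. A direct repeat of AGGNCA with a 1-base spacer, the form bound by PPAR and RXR, was in 0 of the 37 and in 0.404% of 21757 promoters. The ERR half-site TCAAGGTCA was in 0 of 37 and in 0.473% of all. The motif TTGCATCA, a form bound by ATF4 with C/EBP factors, was in the promoters of Cpt1b and Echs1 and in 0.993% of all. A match is not a bound site, and no match in this window says nothing of sites elsewhere. The 2 matches are shown in 60 bases each, 5′ to 3′ along the gene on the minus strand, with the motif, which reads on the opposite strand, in capitals, from chr15:89310245-89310304 and chr7:139696465-139696524.
Cpt1b: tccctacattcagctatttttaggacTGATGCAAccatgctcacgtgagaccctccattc
Echs1: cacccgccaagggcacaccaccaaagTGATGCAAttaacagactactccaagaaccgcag

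Of the lipid droplet genes, Dgat2 alone had a value far from 0. Dgat2 and Dgat1 encode unrelated enzymes that complete triglyceride synthesis. Dgat2 (chr7:98802865-98831926, minus strand, GRCm39) was measured at 288, 339 and 396 CPM (lowest, median, highest) in Ctrl and at 130, 264 and 353 CPM in hMut. Of the hMut hearts, 7 of 9 were below every Ctrl heart, and hearts 2 and 8 were within the Ctrl range. The log2 fold change was -0.40 ± 0.15 (adjusted p = 0.111), and without hearts 6 and 9 it was -0.24 (adjusted p = 0.122). Limma-voom gave -0.34 with an adjusted p of 0.0208.

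Dgat1 had the narrowest interval of the 37 genes, -0.10 to 0.08 around a log2 fold change of -0.01, at 17.4 ± 1.06 CPM in Ctrl and 17.3 ± 0.65 CPM in hMut. Dgat1 shares 2486 of its 4551 exonic bases with Hsf1 on the opposite strand. The Dgat2 to Dgat1 log2 ratio was 4.27 ± 0.22 (SD, n = 8) in Ctrl and 3.82 ± 0.44 (SD, n = 9) in hMut. The ratio was lower in hMut by 0.45 (exact permutation p = 0.0152, adjusted p = 0.0304), with 5 of 9 hMut hearts below every Ctrl heart. It did not pass without hearts 6 and 9, where the difference was -0.24 (exact permutation, adjusted p = 0.0982).

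Pnpla2 (adipose triglyceride lipase, the first step of droplet breakdown) was at 281 ± 36.6 and 286 ± 26.3 CPM, a log2 fold change of 0.02. Lipe, the hormone-sensitive lipase, had -0.10 with an interval of -0.38 to 0.18. Plin5, the droplet coat protein of oxidative tissue, had -0.02 with an interval of -0.26 to 0.22. In heart 6, log2 CPM minus the Ctrl mean was 0.05 for Pnpla2 and -0.52 for Plin5. Per kilobase of deposited gene length in Ctrl, the order was Dgat2 at 109, Pnpla2 at 93.2, Plin5 at 49.3, Lipe at 6.18 and Dgat1 at 5.70 CPM per kb. The deposited lengths of Dgat2 and Pnpla2 are 3083 and 3020 bases, and their reference transcripts 2671 and 2061. The order of these 2 thus depends on the length used. Of 10 adipocyte markers, 2 (Fabp4 and Trarg1) passed the filter and 0 were called by edgeR. The summed level of all 10 ranged from 345 to 478 CPM in Ctrl and from 307 to 522 in hMut. Nearly all of it was Fabp4, at 342 to 475 CPM in Ctrl and 303 to 516 in hMut, so the sum does not measure adipocytes. The part of adipocytes in the droplet genes was not tested.

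**Figure D3:**
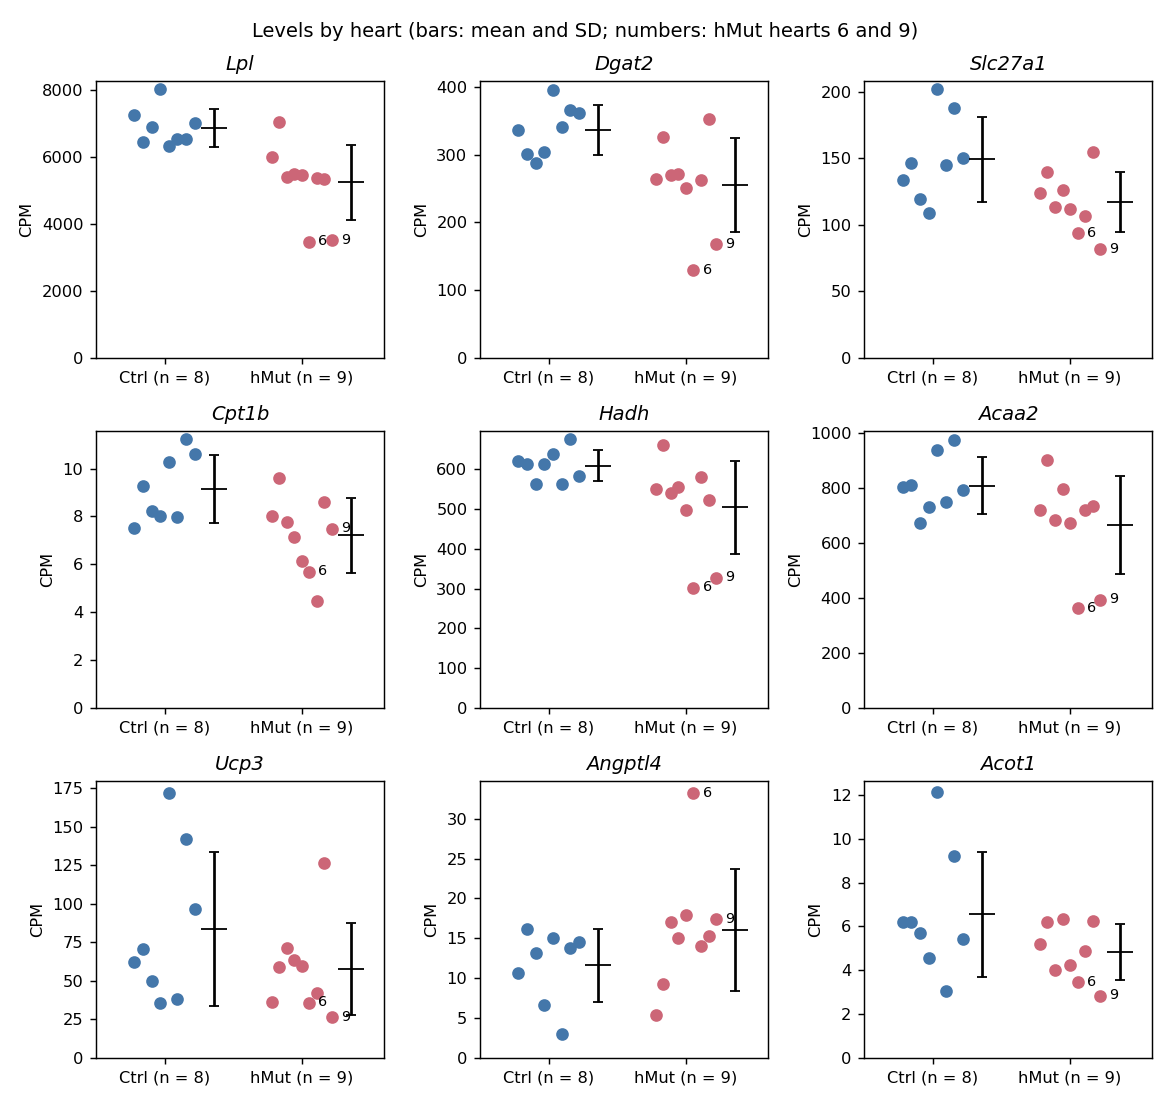
CPM in each of 8 Ctrl and 9 hMut hearts for 9 genes, with mean and SD beside the points; hMut hearts 6 and 9 are numbered. Hearts 6 and 9 are the lowest 2 points for Lpl, Dgat2, Hadh and Acaa2, while Cpt1b is lowest in heart 7 and Angptl4 highest in heart 6.

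**Figure D4:**
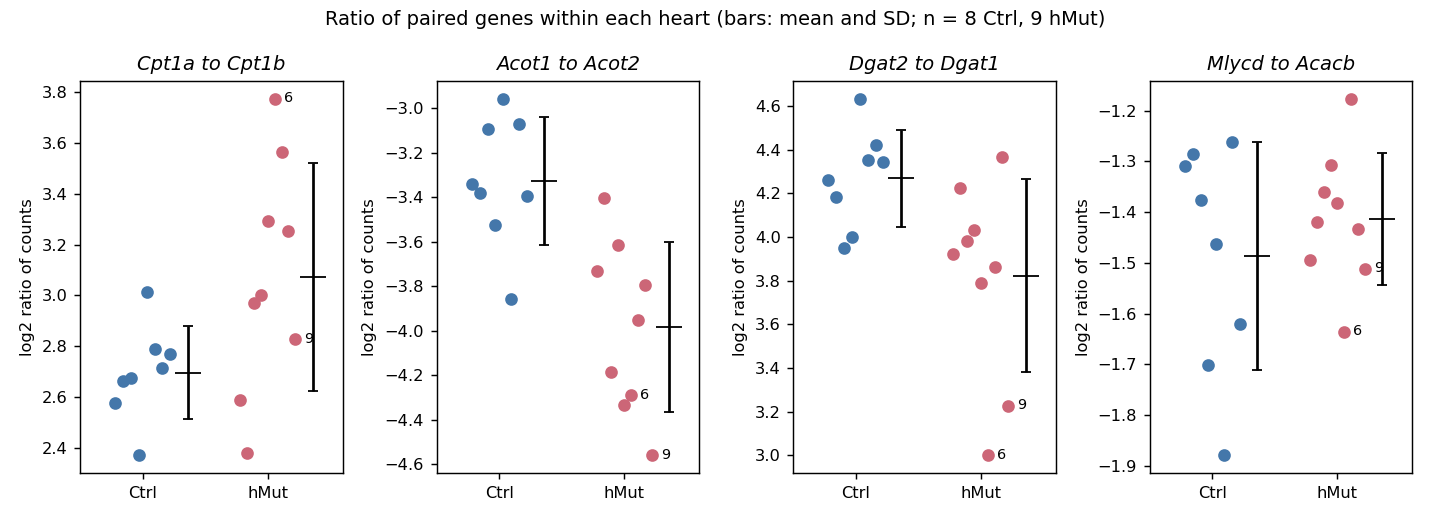
Log2 ratio of counts of 2 genes within each heart for 4 pairs, with mean and SD (8 Ctrl, 9 hMut); hMut hearts 6 and 9 are numbered. For Acot1 to Acot2 and for Dgat2 to Dgat1, 5 of 9 hMut hearts lie below all Ctrl hearts.

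In the matrix, the acyl-CoA dehydrogenases take the first electrons from chains of falling length: Acadvl (very long), Acadl (long), Acadm (medium) and Acads (short). Their log2 fold changes lay between -0.23 (Acadvl) and -0.15 (Acadl), and their adjusted p-values between 0.176 and 0.295. Acadm was at 1618 ± 91.8 CPM in Ctrl and 1387 ± 293 CPM in hMut, with 6 of 9 hMut hearts below every Ctrl heart and heart 2 above them all. Averaged over the 4 genes, log2 CPM minus the Ctrl mean was -0.68 in heart 6 and -0.72 in heart 9. In the other 7 hMut hearts it lay between -0.13 and 0.13.

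The next step holds the genes of the trifunctional protein, Hadha and Hadhb, of the shorter-chain hydratase Echs1, of the dehydrogenase Hadh and of the thiolase Acaa2. The 5 log2 fold changes lay between -0.28 and -0.20, the most negative median (-0.27) of any step with more than 1 gene. Hadh was at 610 ± 38.9 CPM in Ctrl and 505 ± 117 CPM in hMut, a log2 fold change of -0.27 (adjusted p = 0.175), with 7 of 9 hMut hearts below every Ctrl heart. Echs1 also had 7 of 9 below, with heart 2 above, and a log2 fold change of -0.20 (adjusted p = 0.202). Hadha had -0.28 (adjusted p = 0.122) and Hadhb -0.24 (adjusted p = 0.134). These 2 lie head to head on chromosome 5 and share 932 exonic bases on opposite strands, and 53.2% of the 100-base words of Hadhb occur in Hadhb-ps. Acaa2 had -0.28 (adjusted p = 0.234), and its log2 differences from the Ctrl mean were -1.15 in heart 6 and -1.03 in heart 9. Averaged over the 5 genes these differences were -0.90 and -0.80, and in the other 7 hMut hearts they lay between -0.23 and 0.10.

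The auxiliary enzymes Eci1, Eci2, Decr1 and Ech1 move or reduce double bonds so that unsaturated chains can pass. Their log2 fold changes lay between -0.26 (Ech1) and -0.13 (Eci2), and the smallest adjusted p was 0.258. Ech1 stood at -1.11 and -1.06 against the Ctrl mean in hearts 6 and 9, and between -0.27 and 0.17 in the others. Electrons from the acyl-CoA dehydrogenases pass to the flavoprotein of Etfa and Etfb and then, through the product of Etfdh, to ubiquinone. Etfa had a log2 fold change of -0.24 (adjusted p = 0.169), Etfdh -0.26 (adjusted p = 0.175) and Etfb -0.14 (adjusted p = 0.289). Etfb shares 65.2% of its 100-base words with Etfbl, so its level is uncertain.

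Ucp3 encodes a mitochondrial carrier of muscle that is raised by fasting and fatty acids. It was measured at 35.8, 66.6 and 172 CPM (lowest, median, highest) in Ctrl and at 26.3, 58.9 and 126 CPM in hMut. At -0.53 ± 0.34, its log2 fold change was the most negative of the 37, but its 95% interval ran from -1.24 to 0.17 (adjusted p = 0.314). The Ctrl hearts alone differed 4.81-fold, and without Ctrl heart 5 the value was -0.30, less negative than that of Lpl (-0.41). Ctrl hearts 5 and 7 were the highest 2 controls in Ucp3, Acot1, Lipe and Slc27a1, and they had the highest medians over the 37 genes among controls, 0.18 each. Both were read as female, as was Ctrl heart 6, the lowest control in Acot1. With sex as covariate the log2 fold changes were -0.40 (Ucp3), -0.36 (Acot1), -0.06 (Lipe) and -0.29 (Slc27a1). The part of sex in these genes was not tested.

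The spread between hearts was larger in hMut for 28 of the 37 genes, and for 68.1% of all genes tested. The median SD of log2 CPM over the members was 0.15 in Ctrl and 0.28 in hMut. Exceptions included Acot2, with 0.36 in Ctrl and 0.15 in hMut, and Lipe, with 0.38 and 0.19.

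Scaling the libraries on the 14 cardiomyocyte markers asks how the members stood relative to heart muscle transcripts. Under that scaling the median of all genes was 0.22 and the median of the 37 was -0.01, with 17 above 0 and 20 below. Fabp3 (0.20, adjusted p = 0.0164), Acot2 (0.46, adjusted p = 0.0142), Pnpla2 (0.24, adjusted p = 0.0308) and Dgat1 (0.21, adjusted p = 0.0431) were then called higher by edgeR, beside 37% of all genes called higher, so their share was below that of all genes. Lpl was called lower (-0.20, adjusted p = 0.0401), as were 0.655% of all genes. The sign of 14 members turned under this scaling, and some of these, such as Fabp3, Plin5 and Cpt1a, also turned under other settings.

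**Figure D5:**
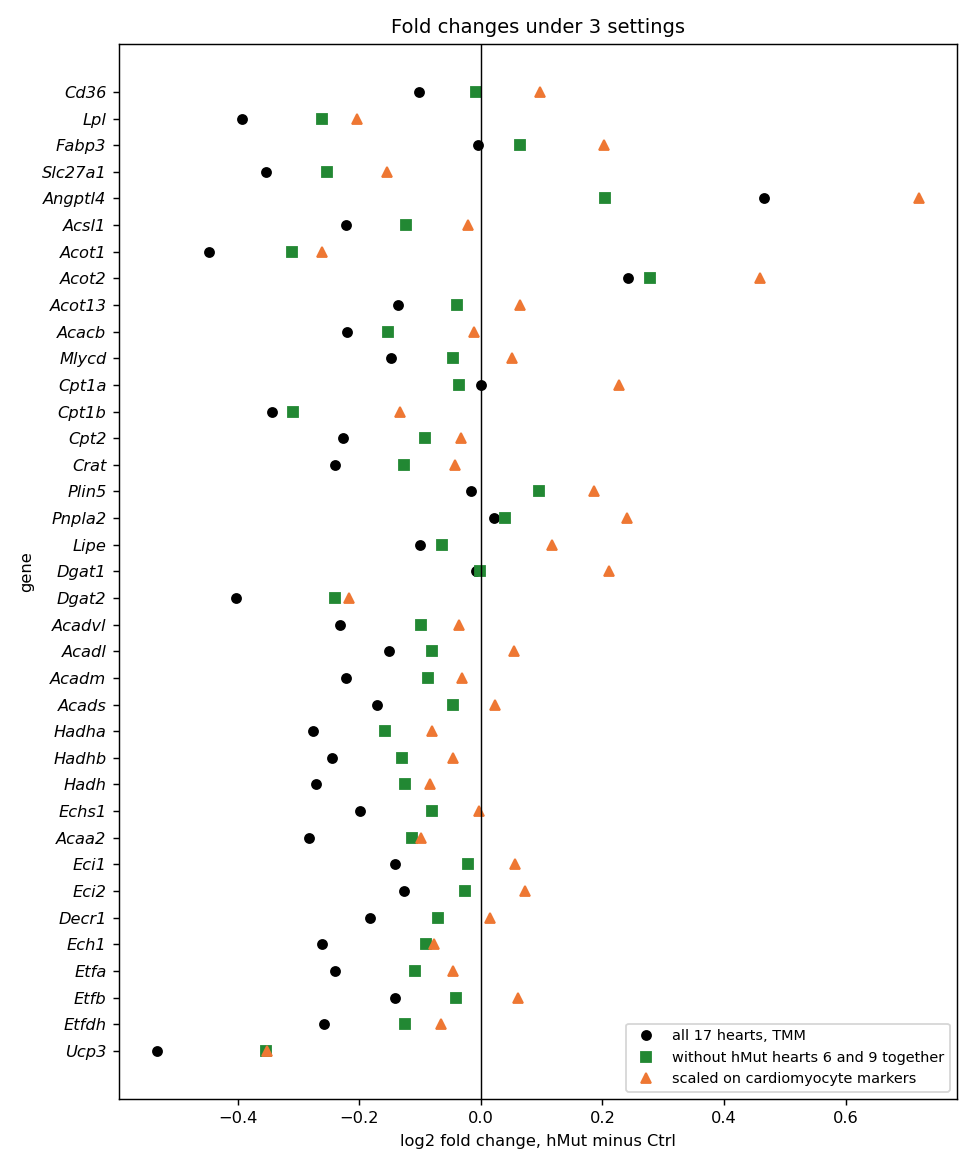
Log2 fold change (hMut minus Ctrl) of the 37 genes with all 17 hearts, without hMut hearts 6 and 9, and with libraries scaled on 14 cardiomyocyte markers. Most points move toward 0 without hearts 6 and 9, and 20 of the 37 genes, among them Lpl, Dgat2, Slc27a1, Cpt1b, Acot1 and Ucp3, are below 0 in all 3 settings.

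Other genes of the same and related pathways were counted from 10 lists holding 146 distinct genes, of which 133 were tested. Of these 133, 7 were called higher and 2 lower, beside 3.48% and 1.14% of all genes tested. Their median log2 fold change was -0.08. Among 17 genes tested from a broader list of acyl-CoA metabolism, 0 were called by edgeR. That list was not mitochondrial beta-oxidation alone. It held Pcca, Pccb, Mcee and Mmut of propionyl-CoA breakdown and Hibch of valine breakdown. Mcat and Mecr of mitochondrial fatty acid synthesis and the peroxisomal Nudt7, Nudt19 and Eci3 were in it too. All 17 had a value below 0 under TMM scaling, beside 49.5% of all genes tested, and the median was -0.20. Their summed level was 741 CPM in hMut heart 6 and 806 CPM in heart 9, against 1085 to 1253 CPM in Ctrl and up to 1280 CPM in another hMut heart. Without hearts 6 and 9, a setting added for these lists after the data were seen, 15 of 17 were below 0 and the median was -0.10. With all hearts, the smallest adjusted p belonged to Acad10 (0.0537), Mmut (0.107) and Acad12 (0.115). Among 18 peroxisomal genes 0 were called and 18 had a value below 0 under the same scaling, with a median of -0.16. Their summed level was 1257 CPM in heart 6 and 1398 CPM in heart 9, against 1733 to 1874 CPM in Ctrl, and without these 2 hearts 14 of 18 were below 0 with a median of -0.08. Ehhadh, the peroxisomal bifunctional enzyme, had -0.43 (adjusted p = 0.109), with -1.13 in heart 6 and -1.23 in heart 9 against the Ctrl mean, Phyh -0.23 (adjusted p = 0.110) and Scp2 -0.17 (adjusted p = 0.121).

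Of 5 tested carnitine genes, Aldh9a1, an enzyme of carnitine synthesis, was called lower by edgeR, as were 1.14% of all genes tested. Aldh9a1 was at 40.9 ± 7.13 CPM in Ctrl and 30.3 ± 3.89 CPM in hMut (log2 fold change -0.43, edgeR adjusted p = 0.0170). The carnitine transporter Slc22a5 had -0.31 (adjusted p = 0.0975) and Crot -0.13 (adjusted p = 0.126). Of 15 activation genes, the thioesterase Acot9 rose (log2 fold change 0.26, edgeR adjusted p = 0.0349), as did 3.48% of all genes tested. Acot9 was not called without hearts 6 and 9. Acss2 had -0.12 (edgeR adjusted p = 0.120) and Acsl5 0.36 (edgeR adjusted p = 0.130). None of 8 uptake genes was called by edgeR. Got2, a matrix aminotransferase that is also a membrane fatty acid binding protein, had -0.16 (adjusted p = 0.0910) with 8 of 9 hMut hearts below every Ctrl heart, Gpihbp1, the endothelial anchor of lipoprotein lipase, 0.21 (adjusted p = 0.148) and Slc27a4 0.10 (adjusted p = 0.174). None of 21 droplet genes was called by edgeR; Gpam had -0.37 (adjusted p = 0.146), Fitm1 -0.27 (adjusted p = 0.159) and Fitm2 -0.23 (adjusted p = 0.210).

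Among 20 transcription regulators, 2 rose and 1 fell by edgeR's test, beside 3.48% of all genes called higher and 1.14% lower. Ppargc1a, the coactivator of mitochondrial biogenesis, was at 96.9 ± 6.56 CPM in Ctrl and 79.3 ± 7.87 CPM in hMut, with 8 of 9 hMut hearts below every Ctrl heart (log2 fold change -0.29, adjusted p = 0.0081). Ppard rose by 0.16 (adjusted p = 0.0444) and Pparg by 0.33 (adjusted p = 0.0489), and without hearts 6 and 9 Ppargc1a and Ppard were called and Pparg was not. Of 15 tested PPAR targets outside the 37, Fgf21 was called higher, as were 3.48% of all genes tested. It is a secreted hormone that is also induced in mitochondrial stress. Its level was 0 to 0.113 CPM in Ctrl and 0.433 to 4.69 CPM in hMut (edgeR adjusted p = 9.7e-05). Every hMut heart was above every Ctrl heart, a pattern that 0.543% of all genes showed. At these levels Fgf21 passed the filter on low counts only through the hMut hearts, where it is high. Of 8 AMPK subunit genes 0 were called by edgeR, with Prkab1 at -0.19 (adjusted p = 0.149), Prkag3 at -0.23 (adjusted p = 0.262) and Prkag1 at -0.10 (adjusted p = 0.321).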

How the data were processed

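Whole-heart RNA of 17 mice was measured as poly(A)-selected bulk RNA-seq on a NovaSeq X Plus. Per the labels and the study's methods, the authors used fastp for read filtering, HISAT2 2.2.1 for alignment to GRCm39 and featureCounts 2.0.6 for counting per gene; the deposited values are raw counts. The annotation release and strand setting are not given in the sources used here. Gene lengths for CPM per kilobase were those deposited with the counts.

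Groups came from the labels, with 1 library per mouse, so p-values judge a group difference against the spread between these mice. Genes were filtered with filterByExpr, scaled by TMM and tested with edgeR 4.0.16 (glmQLFit, glmQLFTest); intervals are 95%. DESeq2 1.42.0, limma 3.58.1 (voom), other scalings and filters, sex as covariate, a replicate block and leaving out hearts were alternatives. Ratios used log2 of counts plus 0.5. Scripts were tested on simulated data. Exon overlaps, shared 100-base words and promoters came from GRCm39 with GENCODE M39; 56017 of 56748 gene IDs matched. Library correlations (Spearman) lay between 0.906 and 0.926, and no 2 libraries were identical.

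The 37 members and all lists were chosen with earlier results of these data known. Every member was described; per-heart values were given for members past the threshold and for the 3 with the largest fold change, and further for some chosen after their values were seen. Each other pathway list is represented by its 3 genes of smallest adjusted p. Depth gave at least 104 counts per member and library; the precision of a gene is set by the spread between hearts.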

Additional observations from a re-analysis of the deposited data

Results flagged for a closer look

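Of 74 sets of hearts (37 genes in 2 groups) examined for a single heart far from the others on the log2 scale, 1 was flagged, where chance flags about 5%. Cd36 in Ctrl heart 6 was at 1671 CPM, below the next control at 1965 CPM, a gap of 0.583 of the group's whole range. Hearts 6 and 9 of hMut were low together and so were not flagged by this measure, which looks for 1 heart.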

How the results depend on the processing

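The count of all genes called moved from 749 to 1517 with DESeq2, 463 with no filter on low counts, 2081 with limma-voom, 6092 with cardiomyocyte-marker scaling, 195 with the replicate block and 431 without hMut hearts 6 and 9, and ranged from 395 (without hMut heart 5) to 1792 (without hMut heart 2) when 1 heart was left out. Members called higher were 0 except for 4 under marker scaling. Members called lower went from 0 to 1 with DESeq2, 7 with limma-voom, 1 with marker scaling and 1 without hearts 6 and 9. With 1 heart left out they went from 0 to 4 (1 without hMut heart 1, 4 without hMut heart 2: Lpl, Acacb, Cpt1b and Crat). Of all genes tested, 353 of 16121 were called lower without hMut heart 1 and 664 of 16136 without hMut heart 2. The members' median of -0.22 moved to -0.011 with marker scaling and -0.088 without hearts 6 and 9, and ranged from -0.25 to -0.15 with 1 heart left out. The causes were not tested.

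The replicate numbers name different mice. Over 8 pairs of equal number the correlations of deviations ran from -0.225 to 0.339, with 1 over 0.1 (pair 8). The labels link no Ctrl mouse to an hMut mouse, and these correlations cannot settle whether equal numbers share more than a name. With the replicate block 0 members were called and the members' median was -0.17.

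The Dgat2 to Dgat1 difference of -0.45 was -0.24 without hearts 6 and 9 (adjusted p = 0.0982) and ran from -0.51 to -0.34 with 1 heart left out, not passing without Ctrl heart 1, 5, 6, 7 or 8. Cpt1a to Cpt1b ran from 0.29 to 0.46 and passed without hMut heart 1 or 2. Acot1 to Acot2 ran from -0.73 to -0.59 and Mlycd to Acacb from 0.02 to 0.11, with no call changed.

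Members whose sign turned under marker scaling were Cd36 (0.097), Fabp3 (0.20), Acot13 (0.064), Mlycd (0.051), Cpt1a (0.23), Plin5 (0.19), Lipe (0.12), Dgat1 (0.21), Acadl (0.055), Acads (0.024), Eci1 (0.056), Eci2 (0.072), Decr1 (0.015) and Etfb (0.060). Fabp3 turned to 0.042 with limma-voom, 0.0012 with sex as covariate, 0.018 with the block and 0.065 without hearts 6 and 9, Plin5 to 0.043, 0.018, 0.033 and 0.096 in that order, Cpt1a to 0.00019 with no filter, 0.027 with sex and 0.035 with the block, and Dgat1 to 0.018 with limma-voom. With 1 heart left out, values ran from -0.034 to 0.032 for Fabp3, -0.066 to 0.079 for Cpt1a, -0.065 to 0.043 for Plin5, -0.011 to 0.061 for Pnpla2, -0.16 to 0.0099 for Lipe and -0.026 to 0.010 for Dgat1. The other members kept their direction in every alternative run.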

Other observations

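Fatty acid synthesis genes were measured in the same hearts. Of 17 tested, 3 rose and 0 fell by edgeR's test, beside 3.48% of all genes called higher and 1.14% lower. The median log2 fold change of the 17 was 0.12. Fads3, a fatty acid desaturase family member, was at 77.0 ± 3.82 CPM in Ctrl (SD, n = 8) and 96.2 ± 10.3 CPM in hMut (SD, n = 9), with 8 of 9 hMut hearts above every Ctrl heart (log2 fold change 0.32, edgeR adjusted p = 0.0044). Acaca, the cytosolic acetyl-CoA carboxylase, had 0.36 (edgeR adjusted p = 0.0309) with 7 of 9 above, and Elovl1, an elongase of very long chains, had 0.46 (edgeR adjusted p = 0.0497) with 6 of 9 above. Without hMut hearts 6 and 9, Fads3 was called by edgeR and Acaca and Elovl1 were not. In hMut hearts 6 and 9, log2 CPM minus the Ctrl mean was 0.64 and 0.57 for Acaca and -0.43 and -0.51 for Acacb, the other carboxylase gene.

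Marker genes of other cells were counted for the same libraries. Among 10 endothelial markers, Cldn5 (log2 fold change 0.61, edgeR adjusted p = 0.0388) and Kdr (0.39, edgeR adjusted p = 0.0407) rose, as did 3.48% of all genes tested. Among 10 fibroblast, 10 macrophage and 10 lymphoid markers 0 were called by edgeR, with medians of 0.37, 0.62 and 0.90. The fibroblast sum reached 2248 CPM in heart 6 and 1770 in heart 9, against 1017 to 1187 in Ctrl. The lymphoid sum was 72.8 CPM in heart 6 and 12.1 in heart 9, against 3.26 to 50.8 in Ctrl. Of the 10 lymphoid markers, 4 had a log2 fold change below 0. Of the atrial markers Bmp10 was called higher (5.58, edgeR adjusted p = 3.3e-05) among 6 tested, as were 3.48% of all genes. Bmp10 ranged from 0.082 to 0.371 CPM in Ctrl and from 0.605 to 25.2 CPM in hMut. It passed the filter on low counts only through the hMut hearts, where it is high. The median of the 6 was 0.64. The atrial sum was 1772 CPM in heart 6 and 1622 in heart 9, against 789 to 1049 in Ctrl. Of the brown adipocyte markers Dio2 was called higher (1.66, edgeR adjusted p = 0.0179) among 2 tested, beside the same 3.48% of all genes. Ucp1 was at or under 3 counts in every library. Among 4 tested skeletal muscle and 6 tested erythroid markers 0 were called by edgeR, with medians of -0.11 and -0.10.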
